A study of Mus musculus with 8 samples.

Results

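The genes described here are 10 genes of the PIWI-interacting RNA (piRNA) pathway. They include the PIWI genes Piwil1, Piwil2 and Piwil4 and the RNA helicase genes Ddx4, Ddx25 and Mov10l1. The others are Pld6 and Asz1, whose proteins lie at mitochondria, and the PIWI partner or cofactor genes Mael and Gtsf1. All 10 were chosen by name. Every probe that is not a control and whose gene name is one of the 10 was taken, which gave 10 of the 55681 probes of the array, 1 probe and 1 spot for each gene. All 10 passed the filter on dim probes, which kept a probe if some group had it well above background in each of its arrays. Piwil4 passed through the other 3 groups, since both wild type arrays of 26 dpp (days postpartum) read it as not well above background. The other 9 were well above background on all 8 arrays.

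The probes are 60 bases long and their positions are those of the scanner files, in build mm9. The probe of Piwil1 lies at chr5:129260319-129260378 on the + strand, that of Piwil2 at chr14:70772497-70772556 on the - strand and that of Piwil4 at chr9:14506802-14506861 on the - strand. The probe of Ddx4 lies at chr13:113388616-113388675, that of Ddx25 at chr9:35349535-35349594 and that of Mael at chr1:168131583-168131642, all on the - strand, and that of Mov10l1 at chr15:88884717-88884776 on the + strand. The probe of Pld6 lies at chr11:59597553-59597612 on the - strand. Those of Asz1 (chr6:18005508-18021991) and Gtsf1 (chr15:103232937-103235246), on the - strand, cover 16484 and 2310 bases of the genome, longer than the probe, and so cross introns. An annotation of that build was not used here, so exons and UTRs are not stated.

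Whole testes of C57BL/6 mice were profiled on Agilent expression arrays, with 1 Cy3-labelled RNA sample on each of 8 arrays. The 4 groups of 2 arrays were wild type (Ip6k1+/+) at 17 dpp, knockout (Ip6k1-/-) at 17 dpp, wild type at 26 dpp and knockout at 26 dpp, and all the mice were littermates born to Ip6k1+/- parents. Ip6k1 encodes an inositol hexakisphosphate kinase, which makes inositol pyrophosphates. The mice of 17 dpp had not been weaned and those of 26 dpp had. The design asks how testis RNA differs with loss of Ip6k1 at each age and, within each genotype, between the ages. The replicates are biological by their labels, which do not say whether a sample came from 1 mouse or from several. The part of Ip6k1 that the allele removes is not given in the sources used here, so the position of its probe relative to that part is unknown.

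piRNAs are small RNAs of the germ line that guide PIWI proteins to transposon RNAs and to other transcripts. A long precursor RNA is taken up by the helicase Mov10l1, cut at the surface of mitochondria by Pld6 and loaded into a PIWI protein, within granules that Ddx4 and Tudor-domain proteins build. In the mouse, one wave of piRNAs is made in fetal and newborn germ cells, where Piwil4 acts in the nucleus, and another is made from the pachytene stage of meiosis on, where Piwil1 acts together with Piwil2. The first wave of spermatogenesis is nearly synchronous, so that pachytene spermatocytes are the most advanced germ cells at about the earlier age and round and early elongating spermatids have appeared by the later one.

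The signal of Ip6k1 was lower in all 4 knockout arrays. On the log2 scale used throughout, 0 is the array's own 75th percentile of signal, and levels of different probes are not compared with each other. Ip6k1 measured 2.20 and 2.30 in the wild type arrays of 17 dpp, 1.37 and 1.50 in the knockout arrays of 17 dpp, 2.79 and 2.77 in the wild type arrays of 26 dpp and 1.41 and 1.31 in the knockout arrays of 26 dpp. The groups did not overlap at either age. With limma's test adjusted over all 26581 genes the difference was not called at 26 dpp (-1.42, SE 0.22, adjusted p = 0.515), nor at 17 dpp (-0.82, SE 0.22). The difference at 26 dpp was -1.37 without the knockout replicate 2 of that age, described next (SE 0.18, limma adjusted p = 0.368).

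The knockout replicate 2 of 26 dpp stood apart from the other 3 arrays of that age. Over all genes tested its log2 values correlated at 0.863 with the other knockout array of 26 dpp and at 0.917 to 0.948 with the 4 arrays of 17 dpp, while the other 3 arrays of 26 dpp correlated with each other at 0.987 to 0.992. In that array 59.8% of spots were well above background, against 63.1% to 65.6% in the other 7. For many of the counts and values of the piRNA genes that move by over 1.5 times without this array, the result without it is also given. All 8 arrays were on 1 slide, with the 17 dpp arrays in one row and the 26 dpp arrays in the other, so that slide row and age cannot be told apart.

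Promoter windows of the genes are shown because 6 of the 10 genes rose together between the ages, as described further on. RefSeq windows of build GRCm38.p6 were found for 9 of the 10 genes (not for Piwil2), and the 250 bases upstream of each annotated start were searched on both strands for 4 motifs: the E-box CACGTG, a palindrome that basic helix-loop-helix factors bind; AACNG, a core of the MYB factors' site; TGACG, the CRE half-site; and TGACGTCA, the full CRE, which holds the half-site. The motifs were chosen after these windows had been looked at. The E-box was present upstream of 5 of the 9 genes, against 6.86% of all 27025 genes with a window. AACNG was upstream of 7 of 9 against 76.8% of all genes, TGACG of 1 of 9 (Ddx4) against 19.8%, and TGACGTCA of 0 of 9 against 1.77%.

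The 5 windows that hold the E-box are printed 5′ to 3′ on the gene's strand, ending at the base before the annotated start, with the E-box in capitals. They lie at chr5:128735996-128736245 on the + strand (Piwil1), chr13:112652311-112652560 on the - strand (Ddx4), chr1:166238745-166238994 on the - strand (Mael), chr11:59787658-59787907 on the - strand (Pld6) and chr15:88982744-88982993 on the + strand (Mov10l1).
Piwil1: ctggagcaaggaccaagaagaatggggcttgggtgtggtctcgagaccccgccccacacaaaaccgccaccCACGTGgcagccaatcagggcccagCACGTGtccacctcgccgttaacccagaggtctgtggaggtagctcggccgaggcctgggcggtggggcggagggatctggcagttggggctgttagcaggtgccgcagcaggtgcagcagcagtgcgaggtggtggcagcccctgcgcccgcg
Ddx4: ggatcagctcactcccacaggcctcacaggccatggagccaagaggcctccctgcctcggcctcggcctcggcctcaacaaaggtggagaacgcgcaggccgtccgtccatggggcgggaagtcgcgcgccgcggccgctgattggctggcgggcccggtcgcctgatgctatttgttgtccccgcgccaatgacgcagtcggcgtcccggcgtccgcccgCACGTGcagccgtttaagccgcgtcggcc
Mael: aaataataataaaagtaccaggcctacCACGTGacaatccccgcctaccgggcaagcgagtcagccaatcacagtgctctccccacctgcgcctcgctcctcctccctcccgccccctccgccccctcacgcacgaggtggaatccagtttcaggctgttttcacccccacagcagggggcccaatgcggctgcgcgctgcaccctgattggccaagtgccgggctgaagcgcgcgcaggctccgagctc
Pld6: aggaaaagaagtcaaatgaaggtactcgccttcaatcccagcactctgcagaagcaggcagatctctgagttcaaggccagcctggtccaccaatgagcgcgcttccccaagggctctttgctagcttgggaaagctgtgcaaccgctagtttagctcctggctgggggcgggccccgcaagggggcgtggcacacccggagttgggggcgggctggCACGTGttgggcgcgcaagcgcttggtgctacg
Mov10l1: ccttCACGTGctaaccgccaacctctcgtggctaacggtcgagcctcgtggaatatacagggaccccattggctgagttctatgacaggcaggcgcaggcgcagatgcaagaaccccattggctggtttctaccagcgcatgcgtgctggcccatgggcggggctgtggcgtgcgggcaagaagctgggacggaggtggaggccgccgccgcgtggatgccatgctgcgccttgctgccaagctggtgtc
The E-box begins 179 and 154 bases upstream of the start in Piwil1, 29 in Ddx4, 223 in Mael, 33 in Pld6 and 246 in Mov10l1. Pld6 has 2 annotated starts, and the window of the other one does not hold CACGTG. Of the genes with an E-box, Piwil1, Ddx4, Mael and Pld6 rose between the ages in wild type and Mov10l1 was not called. Ddx25 and Gtsf1 rose too, and their windows do not hold CACGTG. These are matches of letters, and binding was not measured.

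In wild type testes, 6 of the 10 genes were higher at 26 than at 17 dpp, 1 was lower and 3 were not called. Piwil1, the pachytene PIWI gene, had the largest rise, and Ddx4, Ddx25, Pld6, Mael and Gtsf1 rose with it. Piwil4 fell, and Piwil2, Mov10l1 and Asz1 did not pass the test. Called means an adjusted p under 0.05 in limma with Benjamini-Hochberg adjustment over all genes. Of all genes tested, 45.0% were called in this comparison, 18.9% as higher and 26.1% as lower, so that many genes of the testis moved with these. At an unadjusted p under 0.05 there were 7 of the 10, where 57.3% of all genes had one, and the ages did not overlap for the same 7 of 10, 6 higher and Piwil4 lower, where 88.0% of all genes did not overlap, 32.0% being higher and 56.0% lower. The median difference of the 10 genes was 1.47 on the log2 scale, against -0.46 for all genes. In whole testis, more cells of a type and more RNA per cell cannot be told apart.

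**Figure D1:**
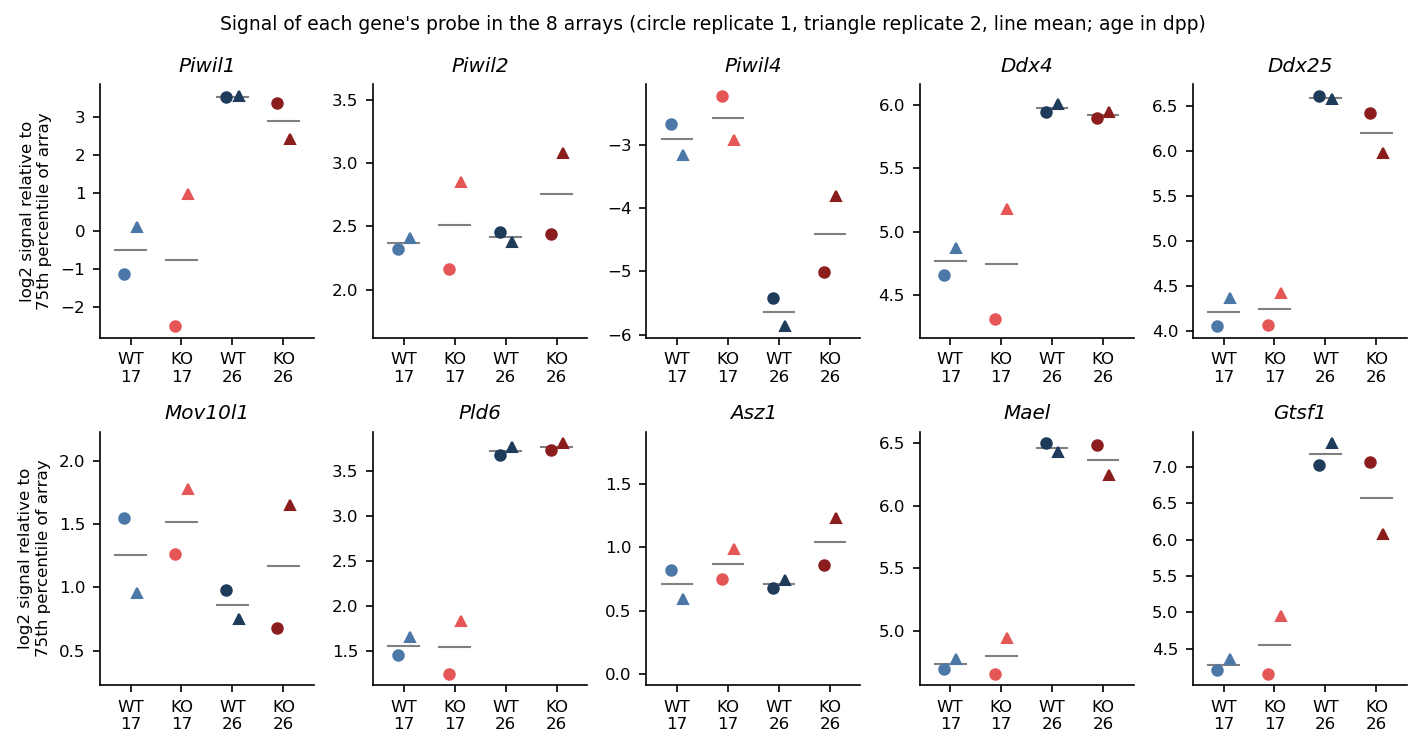
Each panel plots 1 gene in the 8 arrays, by group (WT wild type, KO knockout, 17 or 26 dpp), as log2 signal relative to the array's 75th percentile; circles are replicate 1, triangles replicate 2 and lines the group means, and the vertical scale differs between panels. Piwil1, Ddx4, Ddx25, Pld6, Mael and Gtsf1 lie higher in the arrays of 26 dpp than in those of 17 dpp in each genotype, Piwil4 lies lower, and the triangle of the knockout at 26 dpp lies over 0.9 log2 units from the circle for Piwil1, Piwil4, Mov10l1 and Gtsf1.

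Among the PIWI genes, Piwil1 (Miwi) encodes the PIWI protein of pachytene spermatocytes and round spermatids. Its signal was -1.11 and 0.10 in the wild type arrays of 17 dpp, -2.50 and 0.97 in the knockout arrays of 17 dpp, 3.51 and 3.54 in the wild type arrays of 26 dpp and 3.37 and 2.42 in the knockout arrays of 26 dpp. The groups of 17 dpp were wide, with a range of over 3 log2 units between the knockout arrays, and those of 26 dpp were higher without overlap. The rise in wild type was 4.03 (SE 1.11, 16.3-fold, limma adjusted p = 0.0330).

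Piwil2 (Mili) encodes the PIWI protein that is present from fetal germ cells to round spermatids. Its signal was 2.32 and 2.41 in the wild type arrays and 2.16 and 2.85 in the knockout arrays of 17 dpp, against 2.46 and 2.38 in the wild type arrays and 2.44 and 3.08 in the knockout arrays of 26 dpp. The groups overlapped between the ages in each genotype, and the difference in wild type was 0.053 (95% interval -0.78 to 0.89). The highest value was that of the knockout replicate 2 of 26 dpp.

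Piwil4 (Miwi2) encodes the nuclear PIWI protein of fetal germ cells, which directs DNA methylation of transposons. Its signal was -2.66 and -3.16 in the wild type arrays and -2.22 and -2.92 in the knockout arrays of 17 dpp, against -5.42 and -5.87 in the wild type arrays and -5.01 and -3.81 in the knockout arrays of 26 dpp. Since neither wild type array of 26 dpp read it well above background, only a bound on the fold can be given. The bound sets the brighter group against the higher, in each dim array, of the probe's own signal and that of the dimmest probe still well above background. Piwil4 was at least 5.72-fold higher at 17 than at 26 dpp in wild type (limma adjusted p = 0.0126).

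The helicase gene Ddx4 encodes mouse VASA, a DEAD-box protein of germ cells throughout life. Its signal was 4.66 and 4.87 in the wild type arrays and 4.31 and 5.18 in the knockout arrays of 17 dpp, against 5.94 and 6.01 in the wild type arrays and 5.90 and 5.95 in the knockout arrays of 26 dpp. The 4 arrays of 26 dpp lay close together, above all 4 of 17 dpp. The rise in wild type was 1.21 (SE 0.33, 2.31-fold, limma adjusted p = 0.0323), the smallest of the 6.

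Ddx25 (Grth) encodes a gonadotropin-regulated DEAD-box helicase of meiotic and haploid germ cells that is found in the chromatoid body. Its signal was 4.05 and 4.37 in the wild type arrays and 4.07 and 4.42 in the knockout arrays of 17 dpp, against 6.61 and 6.58 in the wild type arrays and 6.42 and 5.98 in the knockout arrays of 26 dpp. The 2 genotypes overlapped at 17 dpp and did not at 26 dpp, where both knockout arrays were lower. The rise in wild type was 2.39 (SE 0.28, 5.22-fold, limma adjusted p = 0.00668).

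Mov10l1 encodes the helicase that binds piRNA precursors. Its signal was 1.54 and 0.96 in the wild type arrays and 1.26 and 1.78 in the knockout arrays of 17 dpp, against 0.98 and 0.75 in the wild type arrays and 0.68 and 1.65 in the knockout arrays of 26 dpp. The ages overlapped in each genotype. The difference in wild type was -0.39 (95% interval -1.41 to 0.63), an interval wide enough to hold a fall of over 2-fold.

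Pld6 (MitoPLD) encodes the mitochondrial nuclease that cuts piRNA precursors. Its signal was 1.46 and 1.66 in the wild type arrays and 1.25 and 1.84 in the knockout arrays of 17 dpp, against 3.68 and 3.76 in the wild type arrays and 3.73 and 3.81 in the knockout arrays of 26 dpp. All 4 arrays of 26 dpp were higher than all 4 of 17 dpp, and they lay close together. The rise in wild type was 2.16 (SE 0.28, 4.48-fold, limma adjusted p = 0.00750).

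Asz1 (Gasz) encodes a scaffold protein of the mitochondrial surface that germ granules need. Its signal was 0.82 and 0.59 in the wild type arrays and 0.75 and 0.99 in the knockout arrays of 17 dpp, against 0.68 and 0.75 in the wild type arrays and 0.86 and 1.23 in the knockout arrays of 26 dpp. The wild type ages overlapped, with a difference of 0.0048 (95% interval -0.61 to 0.62).

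Mael encodes Maelstrom, a protein needed for transposon silencing and for pachytene piRNAs. Its signal was 4.70 and 4.78 in the wild type arrays and 4.66 and 4.94 in the knockout arrays of 17 dpp, against 6.50 and 6.43 in the wild type arrays and 6.49 and 6.25 in the knockout arrays of 26 dpp. The ages did not overlap in either genotype. The rise in wild type was 1.73 (SE 0.24, 3.31-fold, limma adjusted p = 0.00812).

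Gtsf1 encodes a small zinc finger protein that helps PIWI proteins cut their targets. Its signal was 4.21 and 4.36 in the wild type arrays and 4.16 and 4.95 in the knockout arrays of 17 dpp, against 7.03 and 7.32 in the wild type arrays and 7.06 and 6.08 in the knockout arrays of 26 dpp. The knockout replicate 2 of 26 dpp was the lowest array of that age and still above every array of 17 dpp. The rise in wild type was 2.89 (SE 0.43, 7.42-fold, limma adjusted p = 0.00907).

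The wild type calls rested on all 4 wild type arrays. Without any 1 of them, 0 of the 10 genes were called with limma, where at most 0.722% of all genes were called, although the 6 rises and the fall of Piwil4 kept their direction. Leaving out a knockout array left these differences unchanged, since they lie between wild type arrays, and altered only the spread used in the test. Marker genes of the testis cell types changed over the same ages. As summed signal relative to the 75th percentile, the 10 meiotic markers went from 106 and 123 in the wild type arrays of 17 dpp to 538 and 561 in those of 26 dpp, with 6 of 10 called higher and 1 lower. The 8 round spermatid markers went from 1.02 and 0.965 to 82.3 and 127, with 7 of 8 called higher, and the 8 elongating spermatid markers from 0.378 and 0.400 to 487 and 1386, with 8 of 8 called higher. The 8 spermatogonial markers went from 77.2 and 79.3 to 20.7 and 19.0, with 4 of 8 called lower, and the 8 Sertoli markers from 125 and 109 to 45.4 and 39.6, with 6 of 8 called lower. The 4 epididymis markers measured (of 6) went from 3.67 and 11.8 to 0.0431 and 0.0435, with 4 of 4 called lower. None of these 4 was well above background in the wild type arrays of 26 dpp. The 4 adipocyte markers went from 3.98 and 213 to 25.9 and 5.60, with 0 of 4 called. The part of these changes in the results for the piRNA genes was not tested.

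**Figure D2:**
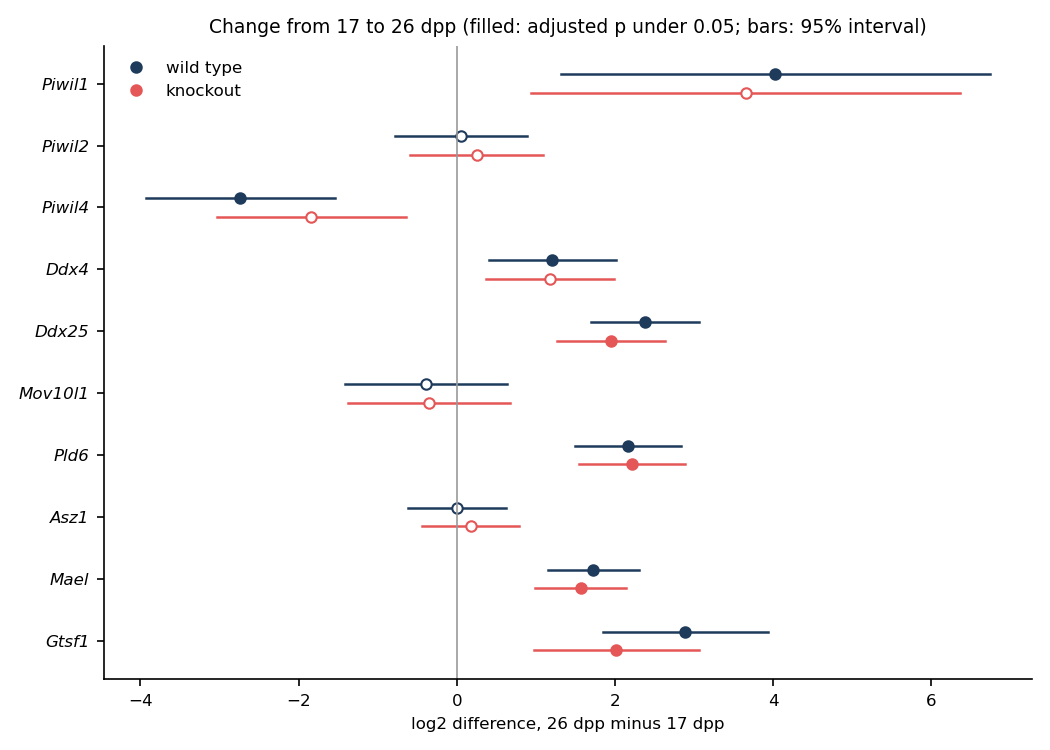
The change from 17 to 26 dpp is plotted for each gene as the log2 difference with its 95% interval, in wild type (dark) and knockout (red), and filled points have a limma adjusted p under 0.05. In wild type 6 genes are filled to the right of 0 and Piwil4 to the left, in knockout Ddx25, Pld6, Mael and Gtsf1 are filled, and the intervals of the genotypes overlap for every gene.

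In knockout testes, 4 of the 10 genes were called higher at 26 than at 17 dpp and 0 lower, where 15.6% of all genes were called, 7.63% as higher and 7.93% as lower. These were Pld6 (2.22, SE 0.28, limma adjusted p = 0.0165), Ddx25 (1.95, SE 0.28, adjusted p = 0.0184), Mael (1.57, SE 0.24, adjusted p = 0.0194) and Gtsf1 (2.02, SE 0.43, adjusted p = 0.0330). Ddx4 had a difference of 1.18 (limma adjusted p = 0.0618), Piwil1 of 3.65 (0.0747) and Piwil4 of -1.84 (0.0544). Those 3 did not pass the test, although their knockout arrays did not overlap between the ages. In all, 7 of 10 had an unadjusted p under 0.05, where 34.5% of all genes had one, and the knockout arrays of the 2 ages did not overlap for 7 of 10, where 60.2% of all genes did not overlap, 22.4% being higher and 37.7% lower. Piwil2 (0.25), Asz1 (0.18) and Mov10l1 (-0.35) overlapped between the ages. Without the knockout replicate 2 of 26 dpp the differences of these 3 were -0.069, -0.012 and -0.84.

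The number called in knockout depended on single arrays. Without the knockout replicate 2 of 26 dpp, 6 of 10 were called, 5 higher with Ddx4 added (1.15, limma adjusted p = 0.0475) and Piwil4 lower (-2.44, adjusted p = 0.00617), where 59.7% of all genes were called. The differences of the other 4 were then 2.18 for Pld6, 2.18 for Ddx25, 1.69 for Mael and 2.51 for Gtsf1. Fits without 1 wild type array, or without 1 knockout array of 17 dpp, called fewer of the 10 genes. They also called fewer of all genes. With array weights, 0 of 10 were called, where 0.226% of all genes were. The weights came out equal within each group, at 0.153 for both knockout arrays of 26 dpp, so they did not set the replicates apart. With the fit limited to the 4 knockout arrays, 0 of 10 were called, where 0% of all genes were.

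The change with age was not called as different between the genotypes for any of the 10 genes. In limma's test of the difference between the knockout effects at the 2 ages, 0 of 10 were called and 0 of 10 had an unadjusted p under 0.05, where 0% of all genes were called and 1.90% had such a p. The value was -0.88 for Gtsf1 (95% interval -2.35 to 0.60), 0.90 for Piwil4 (-0.79 to 2.58) and -0.43 for Ddx25 (-1.40 to 0.54). That of Piwil4 rests on wild type signals of 26 dpp not well above background. For Pld6 the value was 0.056 (-0.89 to 1.01) and for Ddx4 -0.033 (-1.17 to 1.11). Differences of up to about 1 log2 unit in either direction lie within the intervals of these 2 genes. Piwil1 was less precise, with a value of -0.38 that ran from -2.11 to 1.36 with 1 array left out. Leaving out the knockout replicate 2 of 26 dpp gave smaller values for Gtsf1 (-0.38), Piwil4 (0.30), Ddx25 (-0.21), Mael (-0.038) and Pld6 (0.017). The sign changed for Mov10l1 (from 0.035 to -0.45), Piwil2 (from 0.20 to -0.12), Piwil1 (from -0.38 to 0.098) and Asz1 (from 0.17 to -0.017). The values of Mov10l1 and Ddx4 (-0.057) were larger in size without that array. No member was called there either, where 0.00752% of all genes were called.

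At 17 dpp, 0 of the 10 genes were called between knockout and wild type by limma and 0 had an unadjusted p under 0.05, where 0.0941% of all genes were called (0.00376% higher and 0.0903% lower) and 1.44% had such a p. The groups overlapped for all 10 genes, where 28.9% of all genes did not overlap, 16.1% being higher and 12.8% lower. The differences, knockout minus wild type, ran from -0.26 for Piwil1 to 0.34 for Piwil4, with a median of 0.10 against 0.017 for all genes. The narrowest interval was that of Mael (0.063, 95% interval -0.51 to 0.64) and the widest that of Piwil1 (-2.97 to 2.46). Epididymis markers, 4 of 6 of which were measured, summed to 3.67 and 11.8 in the wild type arrays and to 0.0211 and 0.0231 in the knockout arrays of this age. All 4 were called lower in knockout, and none of them was well above background there. The 4 adipocyte markers summed to 3.98 and 213 in wild type and to 1.39 and 1.03 in knockout. The part of these in the comparison was not tested.

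At 26 dpp, 0 of the 10 genes were called by limma, where 0.00752% of all genes were called. At an unadjusted p under 0.05 there was 1 of 10, Piwil4, where 2.45% of all genes had such a p. Piwil4 was higher in both knockout arrays, -5.01 and -3.81 against -5.42 and -5.87. By the bound, the mean of the knockout arrays (-4.41) was at least 2.02-fold higher, set against a level of -5.43. Replicate 1 (-5.01) lay nearer to that level than the mean did, so the 2.02-fold does not apply to replicate 1 alone. The fitted difference of Piwil4 was 1.23 (SE 0.49). That difference and those below rest on wild type signals not well above background, so they are not measured sizes. In limma its p was 0.0447 and its adjusted p = 0.533. Without the knockout replicate 2 its difference was 0.63 (SE 0.41). Without the knockout replicate 1 it was 1.83 (limma adjusted p = 0.0191), and it was then the 1 gene of 10 called, where 45.5% of all genes were called.

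Apart from Piwil4, both knockout arrays of 26 dpp were above the wild type arrays for Asz1 (0.33, 95% interval -0.29 to 0.95) and below them for Ddx25 (-0.40, -1.08 to 0.29) and Piwil1 (-0.63, -3.34 to 2.08). This makes 4 of the 10 genes with groups that did not overlap, 2 higher and 2 lower, where 32.3% of all genes did not overlap, 15.8% being higher and 16.6% lower. For Ddx4 the difference was -0.055 (-0.86 to 0.75), for Pld6 0.046 (-0.63 to 0.72) and for Mael -0.095 (-0.67 to 0.48). For Gtsf1 it was -0.60 (-1.64 to 0.44), for Piwil2 0.34 (-0.50 to 1.18) and for Mov10l1 0.30 (-0.72 to 1.32). With the knockout replicate 2 left out, the difference was -0.11 for Gtsf1, 0.021 for Piwil2, -0.16 for Piwil1, -0.17 for Ddx25 and 0.14 for Asz1, all nearer to 0 than with that array. It was -0.18 for Mov10l1, 0.025 for Mael and 0.0070 for Pld6, and -0.079 for Ddx4. Averaged over both ages, 0 of 10 genes were called by limma and 0 had an unadjusted p under 0.05, where 0% of all genes were called and 2.17% had such a p.

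**Figure D3:**
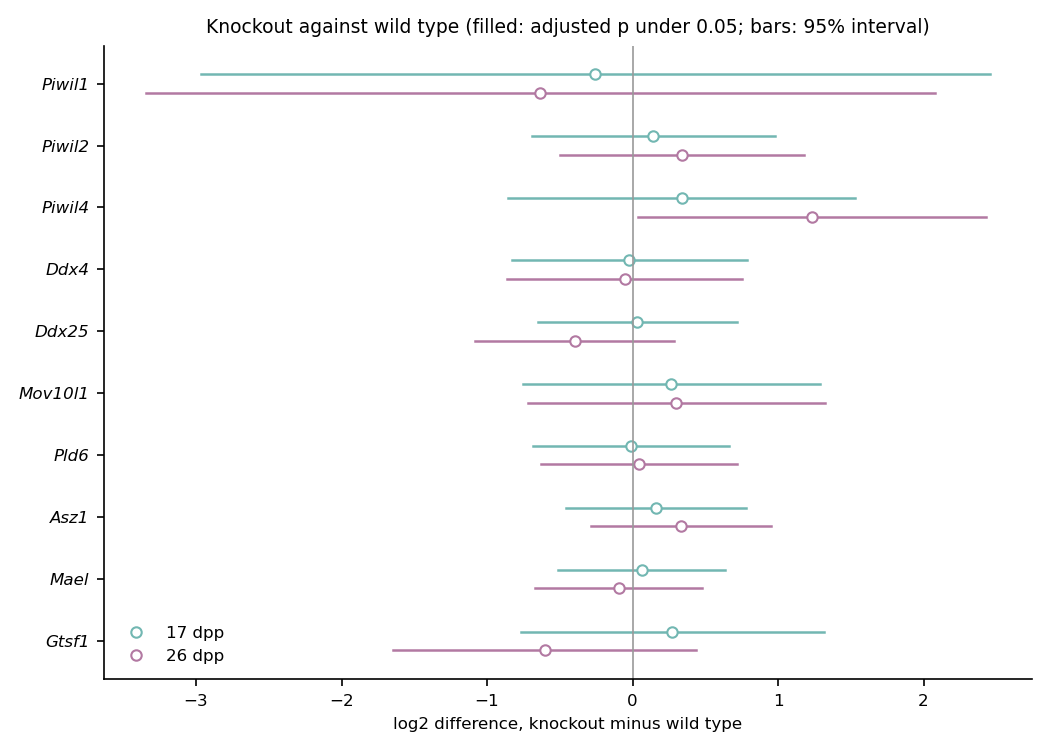
The difference between knockout and wild type is plotted for each gene as the log2 difference with its 95% interval, at 17 dpp (teal) and 26 dpp (purple), and open points have a limma adjusted p of 0.05 or more. All 20 points are open, and Piwil4 at 26 dpp, at 1.23, is the one whose unadjusted interval leaves out 0.

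The 2 knockout arrays of 26 dpp differed in how far the 6 genes had risen. On a scale where 0% is the wild type mean of 17 dpp and 100% that of 26 dpp, taken on log2 values, the knockout replicate 1 of 26 dpp stood at 92.7% to 101% for the 6 genes (median 96.1%). The knockout replicate 2 stood at 104% for Pld6, 97.5% for Ddx4, 87.6% for Mael, 74.0% for Ddx25, 72.5% for Piwil1 and 62.2% for Gtsf1. In that array the 6 genes lay close to or below the wild type level of 26 dpp, and all lay nearer to it than to that of 17 dpp. Their median was 80.8%, against 48.8% for all 5013 genes called higher in wild type, of which 7.38% reached 90%. Piwil4, which fell in wild type, is left out, since its wild type level of 26 dpp was not well above background. The 0% point of the 6 genes was well above background on both wild type arrays of 17 dpp, but for 1608 of the 5013 genes it was not, and their shares start from a level that was not measured. These are values of single arrays, with no test.

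Marker genes of cell types differed between the same 2 arrays. Among markers called higher in wild type, the median share reached in the knockout replicate 2 was 78.2% for 6 meiotic markers, 13.2% for 7 round spermatid markers and 5.05% for 8 elongating spermatid markers, and in replicate 1 it was 97.5%, 99.2% and 99.3%. The 0% point was not well above background on both arrays for 4 of the 7 round and 4 of the 8 elongating spermatid markers. As summed signal, the 8 spermatogonial markers were at 82.3 in replicate 2 and 21.5 in replicate 1, the 8 Sertoli markers at 95.04 and 45.9, and the 6 Leydig markers measured (of 7) at 0.901 and 15.0. The elongating spermatid markers were at 0.541 and 730. The part of these in the values of the piRNA genes was not tested.

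**Figure D4:**
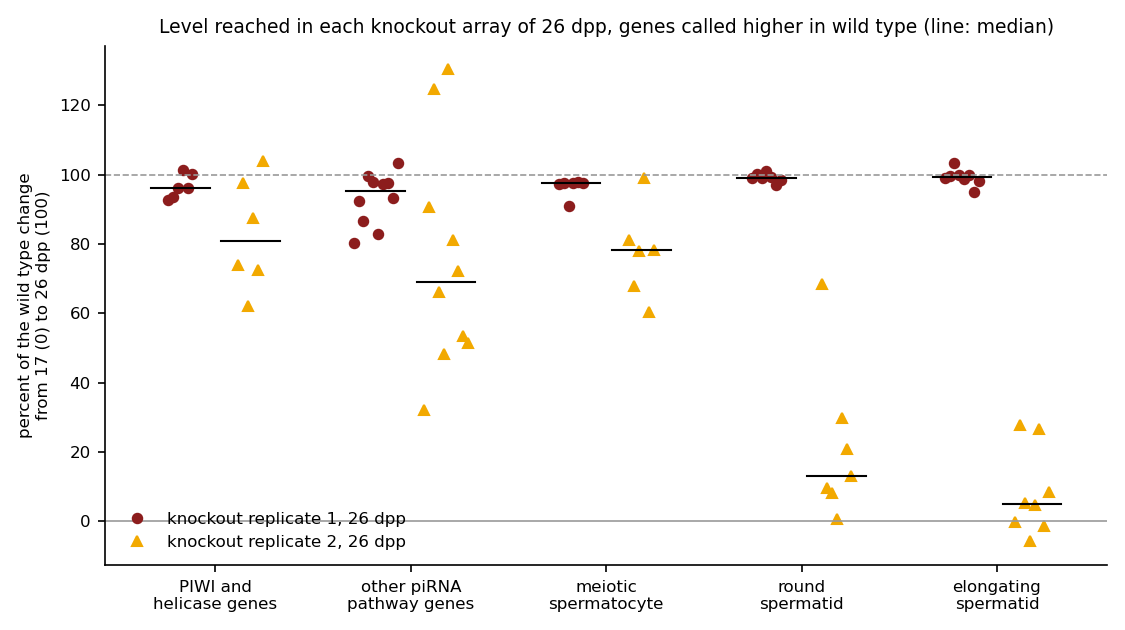
Each point is 1 gene that was called higher at 26 dpp in wild type, placed by the share of the wild type change reached in knockout replicate 1 (red circles) or replicate 2 (yellow triangles) of 26 dpp, on the log2 scale, and lines are medians. In replicate 1 the medians of all groups of genes lie near 100%, while single genes of the other piRNA pathway genes lie lower, down to 80.3% for Exd1. In replicate 2 the medians are 80.8% for the 6 genes described here, 69.1% for the other piRNA pathway genes, 78.2% for meiotic, 13.2% for round spermatid and 5.05% for elongating spermatid markers.

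The other genes of the pathway, a fixed list of 22 of which 21 were tested, moved in both directions with age. In wild type 10 of 21 were called higher and 3 lower, where 18.9% of all genes were called higher and 26.1% lower, and the median difference was 0.94 against -0.46 for all genes. Without any 1 of the 4 wild type arrays, 0 of 21 were called by limma, with 6 to 9 at an unadjusted p under 0.05. Leaving out a knockout array altered the counts of the 21 genes called but not their differences, which lie between wild type arrays. Those higher were the Tudor-domain genes Tdrd1, Tdrd5, Tdrd6, Tdrd7, Tdrd9 and Tdrd12, which build germ granules, Henmt1, which methylates the 3′ ends of piRNAs, Exd1, and the transcription factor genes Mybl1 and Tcfl5. Henmt1 rose by 1.66 (SE 0.22, limma adjusted p = 0.00802), Tdrd7 by 2.37 (SE 0.35, adjusted p = 0.00885) and Tcfl5 by 2.94 (SE 0.44, adjusted p = 0.00912). Those lower were Fkbp6 (-1.52), a cochaperone of PIWI loading, Tex15 (-1.17), a partner of nuclear silencing by Piwil4, and Wdr77 (-1.05), the partner of the arginine methyltransferase Prmt5.

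Mybl1 encodes A-MYB, which switches on pachytene piRNA precursors and genes of the pathway, and Tcfl5 encodes a basic helix-loop-helix factor of the same cells. Mybl1 rose by 0.91 in wild type (SE 0.26, limma adjusted p = 0.0347). In knockout 4 of the 21 genes were called higher with age and 0 lower, where 7.63% of all genes were called higher and 7.93% lower. These were Henmt1 (1.30), Tdrd7 (1.76), Tcfl5 (2.21) and Tdrd6. When the knockout replicate 2 of 26 dpp was left out, 8 of 21 were called higher, with Dnmt3l, Mybl1, Tdrd1 and Tdrd12 added, and 6 lower (Fkbp6, Morc1, Pnldc1, Prmt5, Tex15 and Wdr77), where 21.4% of all genes were called higher and 38.3% lower. Fits without 1 wild type array, or without 1 knockout array of 17 dpp, called fewer of the 21 genes and fewer of all genes. Tdrd6, a large Tudor protein of the chromatoid body, measured -4.11 and -4.12 in the wild type arrays and -6.17 and -2.09 in the knockout arrays of 17 dpp, against 3.94 and 4.08 in the wild type arrays and 3.80 and 1.75 in the knockout arrays of 26 dpp. It was well above background on 1 of the 2 knockout arrays of 17 dpp, so the size of its rise in knockout is not given. Between knockout and wild type, 0 of the 21 were called by limma at 17 dpp or at 26 dpp, where 0.0941% and 0.00752% of all genes were called. At an unadjusted p under 0.05 there were 0 of 21 at either age, where 1.44% and 2.45% of all genes had one. CACGTG was upstream of 4 of the 15 other pathway genes with a window, namely Tdrd1, Tdrd9, Fkbp6 and Dnmt3l.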

How the data were processed

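RNA of 8 testis samples was read on 1-colour arrays with Agilent Feature Extraction 11.5.1.1, per the file headers. The deposited processed signal is an intensity on a linear scale, corrected for background by the authors' scanner software and not scaled between arrays. Mean and background intensities and spot flags (other values) come from the same deposited files. The authors' deposited value table holds log2 values that follow log2 of the processed signal at a correlation of 0.9999 on each array. Its column medians lie between -3.84 and -3.59, and its centring is not stated.

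Control and outlier spots were left out, and log2 of the processed signal was taken minus the log2 of the array's 75th percentile. A gene was read from its brightest kept probe. The 26581 genes were fitted with limma 3.58.1 in R 4.3.3 (lmFit and eBayes) and adjusted by Benjamini-Hochberg. The fit used all 8 arrays, 1 mean per group, no covariate, two-sided tests and 4 residual degrees of freedom. The procedure was tested on simulated data with the same spread on every array, so that test does not cover arrays of unequal spread. The p-values use 1 spread for each gene, pooled over the 4 groups of 2 arrays and moderated by limma. A wild type p therefore also carries the spread of the knockout arrays, and the number of arrays limits the precision. Same-numbered replicates did not deviate together (correlations of deviations from -0.40 to 0.11), so no block was used.

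Named genes are the 10 members, Ip6k1, and up to 3 other pathway genes with the smallest adjusted p per comparison; further pathway genes are named where a count was small and were picked after their values were seen. For Piwil1, Piwil2 and Piwil4 the 3 most similar genes are named. The members and lists were chosen with earlier results of these data known. Alternatives were other background corrections, scalings, filters and variance models, array weights, a replicate block, the authors' values and leaving out each array.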

Additional observations from a re-analysis of the deposited data

How the results depend on the processing

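Counts of the 10 genes called stayed the same or within 1.5-fold under the other background corrections, scalings, filters, variance models and the authors' values. The count for age in knockout (4) was 0 with array weights, 0 with only the arrays compared and 2 with the replicate block. In those fits 0.226%, 0% and 3.57% of all genes were called. The count also moved in both directions when 1 array was left out. For age in wild type (7) it was from 0 to 7 when 1 array was left out, and 7 with the replicate block. Leaving out the knockout replicate 1 of 26 dpp, which leaves 1 array in that group, moved the knockout difference of Piwil4. It went from 1.23 to 1.83 at 26 dpp, and from 0.79 to 1.09 as a mean of the ages. These values rest on wild type signals of 26 dpp not well above background. The knockout arrays of 26 dpp were also exchanged in the block, a fit added after seeing the data. It gave 0 for knockout against wild type at 26 dpp and 6 for age in knockout. In that fit 0% and 14.6% of all genes were called. The block changed no other count by over 1.5-fold. For age in wild type, 33.1% of all genes were called with the replicate block. The cause of these shifts was not tested.

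Of 1134 single-gene values under alternatives, 999 kept direction and side of the threshold, 60 lost and 10 gained a call, and 65 changed sign, with 0 called before or after. For knockout against wild type at 17 dpp, normexp gave Ddx4 0.030 and Pld6 0.063, normexp with quantile 0.015 and 0.063, and the authors' values Pld6 0.0034. With 1 array left out there, Ddx25 ran from -0.14 to 0.21, Ddx4 from -0.45 to 0.41, Gtsf1 from -0.12 to 0.67, Mael from -0.077 to 0.20, Mov10l1 from -0.026 to 0.56, Piwil1 from -1.99 to 1.48, Piwil2 from -0.20 to 0.49, Piwil4 from -0.011 to 0.69 and Pld6 from -0.30 to 0.28. At 26 dpp, the percentile over probes well above background on all arrays gave Pld6 -0.062, and with 1 array left out Mael ran from -0.21 to 0.025 and Mov10l1 from -0.18 to 0.79. For the average over ages, that percentile gave Pld6 -0.035 and the authors' values Mael 0.0061, and with 1 array left out Ddx4 ran from -0.25 to 0.18, Gtsf1 from -0.41 to 0.080, Mael from -0.086 to 0.054, Piwil1 from -1.31 to 0.42 and Pld6 from -0.13 to 0.16. For the difference between the knockout effects, Pld6 was -0.036 with normexp, -0.055 with quantile and -0.054 with that percentile, and Mov10l1 -0.0071 with quantile and -0.075 with that percentile. With 1 array left out, Asz1 ran there from -0.017 to 0.36, Ddx4 from -0.46 to 0.40, Mov10l1 from -0.45 to 0.52, Piwil1 from -2.11 to 1.36, Piwil2 from -0.15 to 0.54 and Pld6 from -0.24 to 0.35. For age in wild type, Asz1 was -0.016 with normexp, -0.053 with quantile, -0.043 with the authors' values and from -0.11 to 0.12 with 1 array left out. For age in knockout, Asz1 ran from -0.012 to 0.36, Mov10l1 from -0.84 to 0.13 and Piwil2 from -0.095 to 0.60 with 1 array left out.

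The all-gene median of the wild type age difference was -0.46, and from -0.51 to -0.28 under other scalings. With any of those scalings 7 were called in wild type. Where an arm was left with 1 array, that array was assumed to vary like the other groups. Piwil4 could not be tested with the filter on all 8 arrays.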

Other observations

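Of 10 relatives of these genes in neither piRNA gene list, 3 were called higher with age in wild type and 3 lower. Of all genes, 18.9% were called higher and 26.1% lower. Between knockout and wild type 0 of the 10 were called by limma at either age. Of all genes, 0.0941% were called at 17 dpp and 0.00752% at 26 dpp. At an unadjusted p under 0.05 there were 0 of 10 at either age, where 1.44% and 2.45% of all genes had one. Gtsf1l and Gtsf2 are paralogs of Gtsf1. Gtsf1l was not well above background on any of the 4 arrays of 17 dpp and at 26 dpp measured 4.69 and 5.63 in the wild type arrays and 5.11 and -3.19 in the knockout arrays. In wild type it was at least 1856-fold higher at 26 than at 17 dpp (limma adjusted p = 0.0136). Gtsf2 was not well above background on either wild type array of 17 dpp, and at 26 dpp measured 3.45 and 3.63 in the wild type arrays and 3.55 and 0.089 in the knockout arrays, at least 605-fold higher in wild type (limma adjusted p = 0.00768). The knockout replicate 2 of 26 dpp was the lowest array of its age for both paralogs, as it was for Gtsf1. D1Pas1, a testis relative of the helicase gene Ddx3x, rose by 2.10 (SE 0.45, adjusted p = 0.0190), while Ddx3x fell by 1.88 (SE 0.56, adjusted p = 0.0397). Mov10, the paralog of Mov10l1 in most tissues, fell by 1.90 (SE 0.31, adjusted p = 0.0105), where Mov10l1 itself was not called, and Ago1, an Argonaute gene, fell by 1.95 (SE 0.49, adjusted p = 0.0264).

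The genes with the most similar pattern over the 8 arrays, by Pearson's r of log2 values, were Tmprss12, 1700020N18Rik and Ccdc192 for Piwil1 (each 0.999), Gsk3a (0.995), Kntc1 (0.984) and Ikzf5 (0.977) for Piwil2, and Fbxo17 (0.998), Hivep2 (0.997) and Btnl9 (0.996) for Piwil4. The arrays share the age groups and were few, and these are descriptions of the 8 arrays. Among the 10 genes themselves, the 6 that rose correlated with each other at 0.932 to 0.994, and Piwil4 with those 6 at -0.965 to -0.893.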
